A study of Homo sapiens with 16 samples.

Results

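The genes described here are 45 named genes of DNA replication: the subunits and loaders that license replication origins, the helicase that unwinds DNA, the polymerases, the sliding clamp and its loaders, and the proteins that protect the replication fork. They and the gene lists used below were chosen by name, with earlier results of these data known. All 45 were in the deposited table of 58735 genes, and all 45 were among the 17647 genes that passed the filter on low counts. PolyA RNA was sequenced from MDA-MB-231 and from SUM159, which the titles call SUM159PT; both are established triple-negative breast cancer lines of human origin with the genotype label WT. The day after seeding, cells of either line were given 8 uM YES1i (CH6953755), an inhibitor of the kinase YES1, or the solvent DMSO as control, and were collected 48 hours later, with 4 libraries in each of the 4 groups. The series text calls the 4 replicates technical, so the p-values below measure only the spread between these libraries. MDA-MB-231 was grown in RPMI and SUM159 in Ham's F12, so line and medium cannot be told apart.

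Replication starts with licensing: the origin recognition complex (ORC) marks origins, and CDC6 and CDT1 help it to load the ring-shaped MCM2-7 helicase onto DNA. At the start of S phase CDC45 and the GINS complex join MCM2-7 to form the active helicase, with MCM10 needed for its activation. Polymerases alpha, delta and epsilon then copy the strands. Polymerases delta and epsilon are held to DNA by the clamp PCNA, which the RFC complex loads. FEN1 and LIG1 join the short pieces of the lagging strand, RPA covers single-stranded DNA, and CLSPN, TIMELESS and TIPIN travel with the fork. Transcripts of many of these genes are known to be E2F targets that rise as cells enter S phase, and in bulk RNA fewer cells in a phase and less RNA per cell cannot be told apart.

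Library totals ran from 15876171 to 36261542 counts, so that 3 counts in a library, the limit that a count of 0 allows, were worth 0.0827 to 0.189 CPM, that is counts scaled to the library total; the levels below are also scaled between libraries by TMM. Markers of the labelled cell type were abundant in every group: VIM, CD44 and EGFR together held 1820 to 3660 CPM. ESR1 and PGR, the hormone receptors that triple-negative tumours lack, were under 1 CPM in every group, whereas ERBB2 was at 107 to 118 CPM. Of the other luminal markers, GATA3 was at 15.96 CPM with DMSO and 12.45 CPM with YES1i in MDA-MB-231, and at 10.99 and 15.02 CPM in SUM159. FOXA1 was under 1 CPM in MDA-MB-231 and at 1.92 CPM with DMSO and 1.32 CPM with YES1i in SUM159. Summed fibroblast markers were at 22.7 to 38.5 CPM in MDA-MB-231 with DCN at 0 counts, and at 734 to 912 CPM in SUM159, most of it COL1A1; leukocyte and endothelial lists stayed at or below 14.6 and 9.97 CPM. In MDA-MB-231 the fibroblast list was lower with YES1i (22.7 to 29.2 CPM) than with DMSO (35.9 to 38.5 CPM), and the endothelial list was higher (8.47 to 9.97 against 2.37 to 4.79 CPM). The leukocyte list was higher with YES1i in both lines, at 12.3 to 14.6 against 10.0 to 11.9 CPM in MDA-MB-231 and 2.55 to 2.82 against 0.939 to 1.42 CPM in SUM159. These sums were moved mainly by single genes. In MDA-MB-231 the fibroblast marker PDGFRB went from 25.5 CPM with DMSO to 13.2 CPM with YES1i, while LUM went from 0.71 to 3.50 CPM. The endothelial marker PECAM1 went from 3.20 to 8.66 CPM there. Of the leukocyte markers, CSF1R went from 8.585 to 11.44 CPM in that line and CD14 from 1.82 to 1.40 CPM. In SUM159, CD14 went from 0.717 to 2.38 CPM, while PTPRC, near the limit above, went from 0.207 to 0.0224 CPM. The share of counts on the mitochondrial rRNA genes was higher with YES1i than with DMSO, 1.29% to 1.39% against 0.619% to 0.677% in MDA-MB-231 and 1.28% to 1.49% against 0.658% to 0.810% in SUM159. The part of these differences in the results below was not tested, other than that the counts of the 45 genes called in each comparison were the same when mitochondrially encoded genes were left out.

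Every one of the 45 genes was lower with YES1i in both lines. Their summed level was 3914, 3964, 3932 and 3916 CPM in the DMSO libraries of MDA-MB-231 and 1860, 1850, 2060 and 2026 CPM with YES1i. In SUM159 the sum was 3403, 3477, 3607 and 3405 CPM with DMSO and 1638, 1548, 1625 and 1531 CPM with YES1i. The YES1i libraries of each line lay far below its DMSO libraries, with no overlap.

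In edgeR's quasi-likelihood test with Benjamini-Hochberg adjustment over all tested genes, called at an adjusted p under 0.05, 45 of 45 genes fell in MDA-MB-231, where 22.0% of all tested genes fell. The median log2 fold change of the 45 was -1.14, against 0.03 over all tested genes, and 33 fell at least 2-fold, which 3.80% of all genes did. In SUM159 likewise 45 of 45 fell, against 26.5% of all tested genes, with a median log2 fold change of -1.23 against 0.02, and 30 fell at least 2-fold, against 3.20% of all genes. The CPM of the YES1i and DMSO libraries did not overlap for 44 of 45 genes in MDA-MB-231, against 21.8% of all genes lower without overlap, and for 44 of 45 in SUM159, against 22.7%; the exceptions were ORC2 and RFC1, in that order. The size of the fall ranged from -0.22 for RFC1 to -1.61 for CDC45 in MDA-MB-231 and from -0.32 for RFC1 to -1.98 for CLSPN in SUM159 (log2 fold change).

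**Figure D1:**
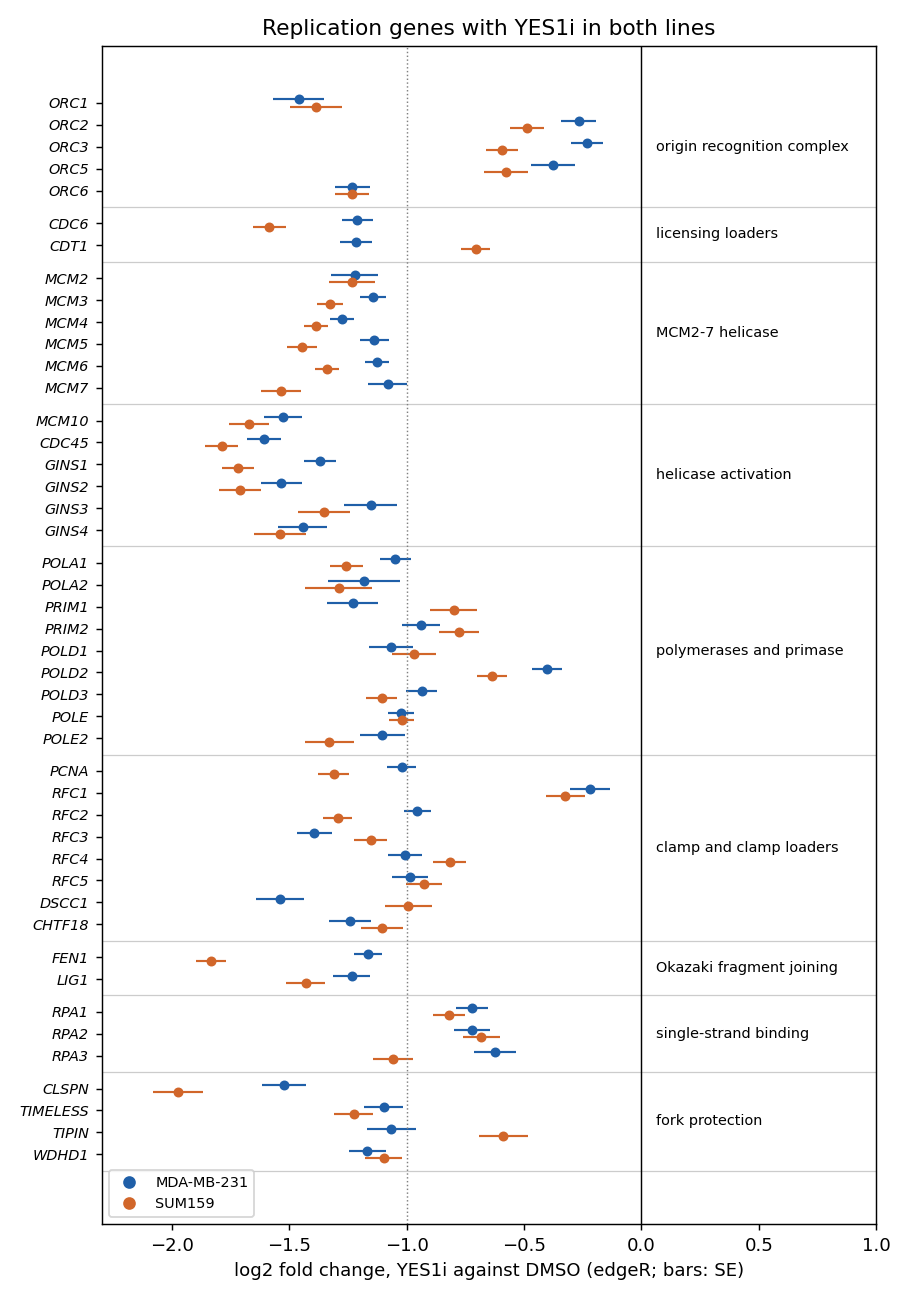
Log2 fold change of each gene with YES1i against DMSO (edgeR) on the horizontal axis, with its standard error as a bar, in MDA-MB-231 (blue) and SUM159 (orange), genes grouped by role; the dotted line marks a 2-fold fall. All points lie left of 0, helicase activation genes lie furthest left as a group, and RFC1 lies nearest to 0 in both lines.

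Since these genes fell together, the sequences before their starts were read for motifs known from cell cycle genes. Of the 45 genes, 38 matched a promoter in RefSeq (GRCh38.p14). DSCC1, GINS4, MCM4, MCM5, POLD3, RPA2 and RPA3 were not matched. Where a gene had more than 1 entry only the first was read, which left out 8 entries. Some entries lay well inside the deposited gene, as for RFC5 and for GINS3 (chr16:58392221-58392520 in a gene at chr16:58295080-58406144). Matches at other starts of these genes were not examined. In the 250 bases before the first listed start, 12 of 38 promoters (31.6%) held the E2F motif, searched as TTTCCCGC or TTTCGCGC or TTTGCCGC or TTTGGCGC on both strands, where 2.79% of 35116 promoters of the same length did. The CCAAT box, searched as CCAAT on both strands, was in 24 of 38 (63.2%) against 32.0% of all, and the CHR motif, TTTGAA or TTTAAA on both strands, was in 0 of 38 against 21.9%; median GC content was 67.0% in the 38 and 58.0% in all, and its part in these shares was not tested. Genes with and without the E2F motif had similar falls: the median log2 fold change was -1.14 with and -1.13 without it in MDA-MB-231, and -1.30 with and -1.17 without it in SUM159, given as a description. A match describes letters and is no binding site by itself. The 150 bases before the start are shown 5′ to 3′ along the gene for 5 genes with the motif and for 3 without it. Together they span large and small falls, but none of the 5 with the motif is among the 4 largest falls of a line. E2F motifs and CCAAT boxes (either strand) are in capitals, and neighbouring or overlapping matches run together, as in MCM6.
PCNA: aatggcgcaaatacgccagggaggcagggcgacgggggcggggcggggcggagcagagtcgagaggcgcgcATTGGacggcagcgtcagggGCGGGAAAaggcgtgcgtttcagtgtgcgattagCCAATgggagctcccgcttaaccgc
MCM6: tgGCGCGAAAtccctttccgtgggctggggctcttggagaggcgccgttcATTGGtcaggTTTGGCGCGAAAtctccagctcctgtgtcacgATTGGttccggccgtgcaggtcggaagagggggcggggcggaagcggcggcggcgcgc
POLA1: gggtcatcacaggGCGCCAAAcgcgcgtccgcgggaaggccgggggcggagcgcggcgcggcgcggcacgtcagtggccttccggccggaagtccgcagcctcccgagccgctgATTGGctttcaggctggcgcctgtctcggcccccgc
POLE: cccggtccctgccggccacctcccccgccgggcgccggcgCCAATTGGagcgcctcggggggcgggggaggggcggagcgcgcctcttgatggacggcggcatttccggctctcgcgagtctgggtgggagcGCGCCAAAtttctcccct
ORC3: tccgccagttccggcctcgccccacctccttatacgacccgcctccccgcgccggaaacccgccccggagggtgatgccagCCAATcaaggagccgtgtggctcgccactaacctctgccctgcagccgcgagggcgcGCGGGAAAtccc
MCM10: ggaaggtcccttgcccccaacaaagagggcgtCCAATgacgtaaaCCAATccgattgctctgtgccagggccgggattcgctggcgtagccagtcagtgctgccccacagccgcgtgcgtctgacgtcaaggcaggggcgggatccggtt
CLSPN: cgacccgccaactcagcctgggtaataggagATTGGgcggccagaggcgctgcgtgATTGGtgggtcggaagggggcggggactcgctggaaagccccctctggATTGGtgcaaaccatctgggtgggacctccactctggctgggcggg
RFC1: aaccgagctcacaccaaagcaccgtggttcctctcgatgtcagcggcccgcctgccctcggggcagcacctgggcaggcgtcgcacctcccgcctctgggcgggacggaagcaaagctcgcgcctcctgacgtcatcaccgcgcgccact
On GRCh38.p14 these lie at chr20:5126623-5126772, minus strand for PCNA, chr2:135876444-135876593, minus strand for MCM6, chrX:24693768-24693917, plus strand for POLA1 and chr12:132687343-132687492, minus strand for POLE. ORC3 lies at chr6:87589985-87590134, plus strand, MCM10 at chr10:13161408-13161557, plus strand, CLSPN at chr1:35769979-35770128, minus strand and RFC1 at chr4:39366363-39366512, minus strand. MCM6 held 4 E2F matches in its 250 bases, MCM7 held 2, and the other 10 genes (MCM3, ORC3, POLA2, POLE, RFC3, GINS2, CDT1, LIG1, PCNA and POLA1) held 1. Among the 4 smallest falls of each line, ORC3 held the motif, and RFC1, ORC2, ORC5 and TIPIN did not hold it in this window. Among the 4 largest falls of each line, GINS2, whose sequence is not shown, held it. CDC45, MCM10, GINS1, FEN1 and CLSPN did not, and DSCC1 was not matched.

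The subunits of the origin recognition complex did not fall to the same extent. ORC1 is an ATP-binding subunit whose level is known to change through the cell cycle. It went from 23.3 ± 0.838 to 8.48 ± 1.17 CPM for MDA-MB-231 and from 19.1 ± 1.13 to 7.34 ± 1.30 CPM in SUM159 (mean ± SD, n = 4), log2 fold changes of -1.46 and -1.39. ORC6, the smallest subunit, went from 31.4 ± 0.822 to 13.3 ± 1.28 CPM and from 40.4 ± 1.41 to 17.2 ± 0.676 CPM, log2 fold changes of -1.23 in both lines. ORC2, ORC3 and ORC5, which belong to the core of the complex, fell less.

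ORC2 was at 35.3, 34.1, 35.5 and 32.1 CPM in the DMSO libraries of MDA-MB-231 and at 27.1, 32.1, 27.7 and 27.1 CPM with YES1i. SUM159 had 55.8, 54.7, 55.2 and 50.8 CPM of ORC2 with DMSO and 35.0, 44.4, 38.2 and 36.7 CPM with YES1i. The groups touched in MDA-MB-231, where YES1i replicate 2 stood at the level of the lowest DMSO library, and were apart in SUM159; log2 fold changes were -0.27 ± 0.07 (SE) and -0.49 ± 0.07 (edgeR adjusted p = 0.00384 and 1.47e-06). ORC3 was at 29.1, 29.3, 30.2 and 32.3 CPM with DMSO and 26.6, 26.4, 26.0 and 24.0 CPM with YES1i in MDA-MB-231. In SUM159 ORC3 was at 40.3, 35.8, 36.8 and 39.5 CPM with DMSO and 25.1, 26.6, 25.2 and 24.3 CPM with YES1i. Both lines showed no overlap for ORC3, with a narrow gap in MDA-MB-231, and log2 fold changes were -0.23 ± 0.07 and -0.59 ± 0.07 (edgeR adjusted p = 0.00502 and 1.38e-08). ORC5 was at 19.6, 18.2, 17.7 and 19.7 CPM with DMSO and 12.7, 16.6, 14.9 and 13.6 CPM with YES1i in MDA-MB-231. In SUM159 ORC5 was at 23.3, 24.5, 20.02 and 24.0 CPM with DMSO and 13.3, 15.4, 16.9 and 15.8 CPM with YES1i. ORC5 was lower in every YES1i library than in every DMSO library of its line, by log2 fold changes of -0.38 ± 0.10 and -0.58 ± 0.09 (edgeR adjusted p = 0.0015 and 6.18e-06).

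Of the 2 loaders, CDC6, an ATPase that joins ORC at origins, went from 103 ± 6.33 to 44.4 ± 3.09 CPM for MDA-MB-231 and from 60.9 ± 3.33 to 20.3 ± 1.71 CPM in SUM159 (n = 4), log2 fold changes of -1.21 and -1.59. CDT1, which brings MCM2-7 to ORC and is held in check by the protein geminin, was at 43.5, 45.8, 43.3 and 47.1 CPM with DMSO and 18.0, 18.2, 21.7 and 19.3 CPM with YES1i in MDA-MB-231. In SUM159 CDT1 was at 72.4, 67.4, 67.1 and 66.4 CPM with DMSO and 43.5, 43.4, 39.6 and 41.1 CPM with YES1i. The groups did not overlap in either line, and the YES1i libraries of SUM159 lay close to the DMSO libraries of MDA-MB-231; log2 fold changes were -1.22 ± 0.07 and -0.71 ± 0.06 (edgeR adjusted p = 4.07e-15 and 1.35e-10).

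The 6 genes of the MCM2-7 ring fell by similar amounts, between -1.08 (MCM7) and -1.28 (MCM4) in MDA-MB-231 and between -1.23 (MCM2) and -1.54 (MCM7) in SUM159 (log2 fold change). MCM3 was at 408, 408, 414 and 394 CPM with DMSO and 175, 169, 193 and 197 CPM with YES1i in MDA-MB-231. In SUM159 it was at 229, 232, 234 and 218 CPM with DMSO and 98.9, 87.8, 92.9 and 84.2 CPM with YES1i. All YES1i libraries lay below all DMSO libraries, with log2 fold changes of -1.14 ± 0.05 and -1.33 ± 0.06 (edgeR adjusted p = 1.28e-16 and 1.58e-17). Summed over the 6 genes, the level went from 1423 ± 14.8 to 641 ± 48.4 CPM for MDA-MB-231 and from 1224 ± 53.3 to 467 ± 35.1 CPM in SUM159 (n = 4).

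The 6 genes that turn the loaded ring into an active helicase had the most negative median of the 9 roles in both lines, -1.49 in MDA-MB-231 and -1.69 in SUM159 (log2 fold change). CDC45, the subunit that joins MCM2-7 at origin firing (hg38 chr22:19479459-19520612 in the deposited table), was at 40.4, 41.6, 44.2 and 42.4 CPM with DMSO and 12.8, 13.6, 14.4 and 14.4 CPM with YES1i in MDA-MB-231. In SUM159 CDC45 was at 50.1, 50.4, 55.5 and 46.3 CPM with DMSO and 13.6, 15.1, 14.8 and 14.9 CPM with YES1i. The YES1i libraries of the lines sat close together although SUM159 started higher; log2 fold changes were -1.61 ± 0.07 and -1.79 ± 0.07 (edgeR adjusted p = 4.47e-17 and 5.89e-18). MCM10, a binding partner of the assembled helicase, was at 55.8, 49.5, 55.4 and 50.4 CPM with DMSO and 17.3, 17.5, 20.6 and 17.7 CPM with YES1i in MDA-MB-231. In SUM159 it was at 38.7, 38.9, 36.8 and 35.1 CPM with DMSO and 10.1, 12.8, 13.2 and 10.8 CPM with YES1i. MCM10 did not overlap between treatments, with 1 YES1i library of MDA-MB-231 above the other 3; log2 fold changes were -1.53 ± 0.08 and -1.67 ± 0.08 (edgeR adjusted p = 1.45e-15 and 8.81e-16).

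The GINS complex bridges CDC45 and MCM2-7. GINS1 was at 57.8, 60.9, 55.0 and 53.7 CPM with DMSO and 21.0, 20.4, 24.2 and 22.3 CPM with YES1i in MDA-MB-231, and at 63.8, 60.1, 68.7 and 60.5 CPM with DMSO and 18.4, 19.6, 20.4 and 18.6 CPM with YES1i in SUM159. GINS2 was at 31.0, 29.8, 28.7 and 32.0 CPM with DMSO and 9.96, 9.18, 11.0 and 11.7 CPM with YES1i in MDA-MB-231, and at 27.9, 25.5, 27.3 and 28.4 CPM with DMSO and 8.56, 8.49, 9.11 and 7.30 CPM with YES1i in SUM159. For both genes the treatments were far apart in each line. Log2 fold changes were -1.37 ± 0.07 and -1.72 ± 0.07 for GINS1 and -1.53 ± 0.09 and -1.71 ± 0.09 for GINS2 in MDA-MB-231 and SUM159 (edgeR adjusted p at most 6.01e-15). GINS4 changed by -1.44 and -1.54 and GINS3, the least abundant of the 4 by count, by -1.15 and -1.35.

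**Figure D2:**
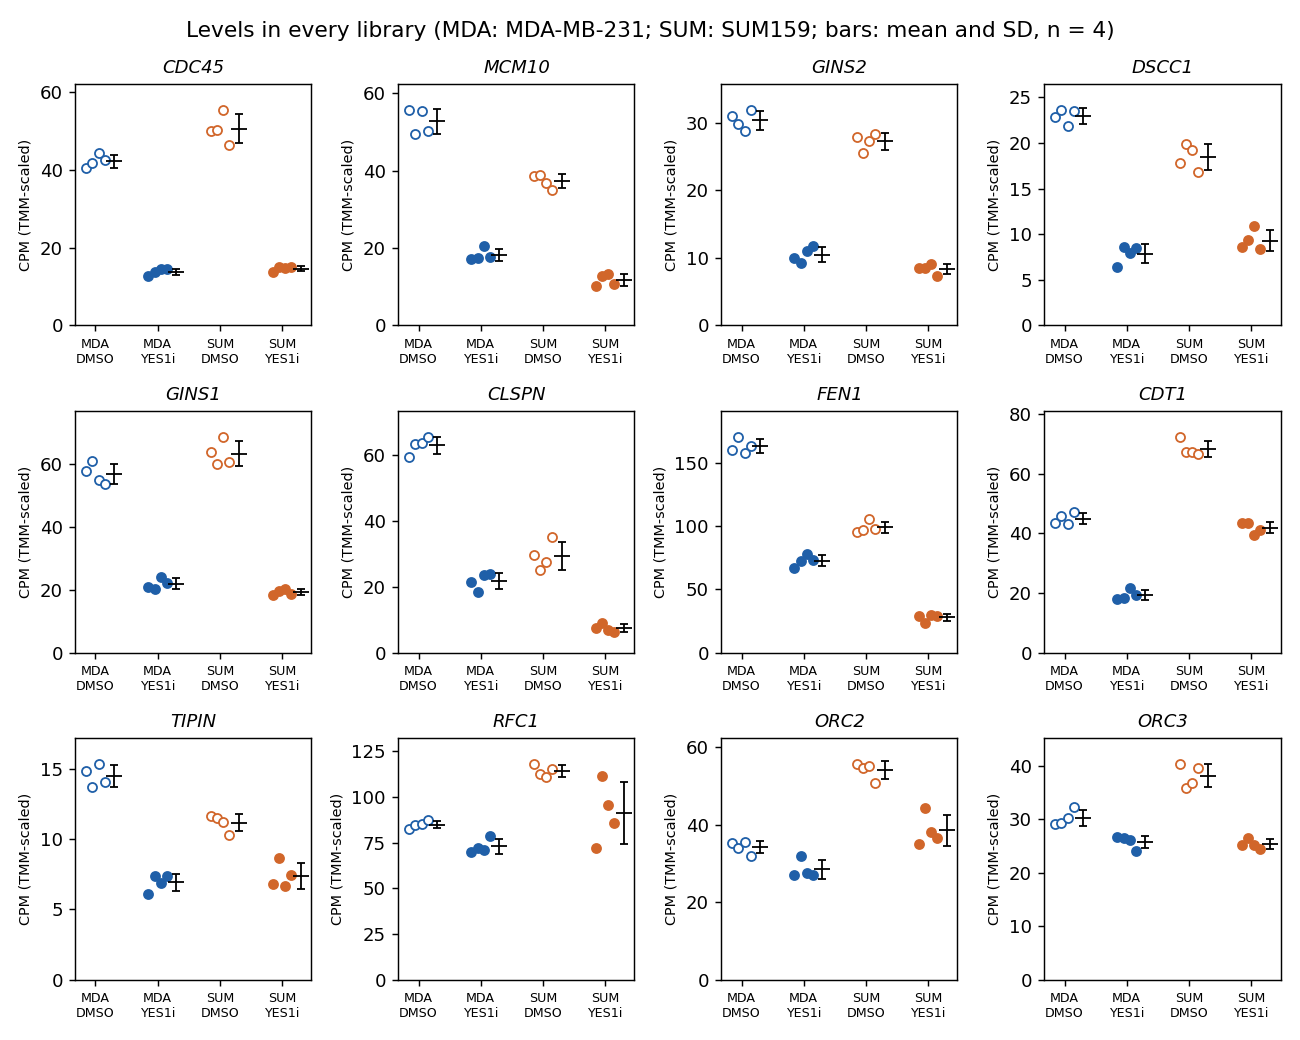
TMM-scaled CPM (vertical axes, from 0) of 12 genes in every library, open circles for DMSO and filled circles for YES1i, MDA-MB-231 in blue and SUM159 in orange, with the mean and SD of the 4 libraries beside them. The treatments are far apart for CDC45, MCM10 and the GINS genes and meet for ORC2 in MDA-MB-231 and RFC1 in SUM159, where the YES1i libraries of RFC1 spread from 71.9 to 112 CPM.

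The 9 genes of the polymerases and primase fell by a median log2 fold change of -1.05 in MDA-MB-231 and -1.02 in SUM159. The polymerase alpha genes POLA1 and POLA2 changed by -1.05 and -1.18 in MDA-MB-231 and by -1.26 and -1.29 in SUM159, and the primase genes PRIM1 and PRIM2, which make the RNA primers, by -1.23 and -0.94 in MDA-MB-231 and by -0.80 and -0.78 in SUM159. POLE, the catalytic subunit of polymerase epsilon, had the same log2 fold change, -1.02, in both lines, going from 130.5 ± 2.42 to 64.1 ± 4.23 CPM and from 146 ± 6.52 to 71.7 ± 3.29 CPM (n = 4). POLD1, the catalytic subunit of polymerase delta, changed by -1.07 and -0.97. Its partner POLD2 fell least of the 9 in both lines, from 211 ± 10.5 to 159 ± 9.10 CPM and from 241 ± 25.9 to 155 ± 9.38 CPM, log2 fold changes of -0.40 ± 0.06 and -0.64 ± 0.06 (edgeR adjusted p = 5.12e-06 and 2.05e-09).

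PCNA, the clamp that tethers polymerases to DNA, went from 176 ± 5.11 to 86.8 ± 5.90 CPM for MDA-MB-231 and from 133 ± 10.4 to 53.7 ± 4.89 CPM in SUM159 (n = 4), log2 fold changes of -1.02 and -1.31. The 4 small clamp loader subunits, RFC2 to RFC5, changed by -0.96 to -1.39 in MDA-MB-231 and by -0.82 to -1.29 in SUM159. The large subunit RFC1 (hg38 chr4:39287456-39366375) was the least changed of the 45 genes in both lines. It was at 82.4, 84.5, 85.4 and 87.5 CPM with DMSO and 69.8, 72.3, 70.8 and 78.8 CPM with YES1i in MDA-MB-231. In SUM159 it was at 118, 112, 111 and 115 CPM with DMSO and 71.9, 112, 95.5 and 85.7 CPM with YES1i. The treatments did not overlap in MDA-MB-231, but in SUM159 1 YES1i library stood within the DMSO range. The log2 fold change was -0.22 ± 0.09 (edgeR adjusted p = 0.0384) in MDA-MB-231 and -0.32 ± 0.08 (adjusted p = 0.00268) in SUM159. The call in MDA-MB-231 was lost on leaving out any 1 of 7 of the 8 libraries of that line, all but YES1i replicate 4, with edgeR adjusted p of 0.0528 to 0.112, and RFC1 was not called in either line under upper quartile scaling (adjusted p = 0.0534 and 0.0523).

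DSCC1 and CHTF18 belong to an alternative clamp loader in which they work with the small RFC subunits. DSCC1 was at 22.8, 23.7, 21.8 and 23.5 CPM with DMSO and 6.41, 8.63, 7.96 and 8.54 CPM with YES1i in MDA-MB-231. In SUM159 DSCC1 was at 17.8, 19.9, 19.2 and 16.8 CPM with DMSO and 8.56, 9.33, 10.9 and 8.34 CPM with YES1i. It was lower without overlap in both lines, by log2 fold changes of -1.54 ± 0.10 and -0.99 ± 0.10 (edgeR adjusted p = 1.89e-13 and 1.8e-09). CHTF18 changed by -1.24 and -1.11.

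FEN1 and LIG1, the nuclease and the ligase that finish lagging-strand pieces, both fell more than 2-fold. FEN1 was at 159.9, 170.4, 158 and 163 CPM with DMSO and 67.0, 72.0, 78.0 and 73.3 CPM with YES1i in MDA-MB-231. In SUM159 FEN1 was at 95.3, 96.9, 105 and 97.8 CPM with DMSO and 28.7, 23.8, 29.5 and 29.2 CPM with YES1i. The fall was deeper in SUM159, which also started lower, and neither line showed overlap; log2 fold changes were -1.16 ± 0.06 and -1.83 ± 0.06 (edgeR adjusted p = 9.9e-16 and 4.76e-19). LIG1 was at 72.9, 76.9, 71.3 and 76.6 CPM with DMSO and 29.6, 27.8, 35.8 and 33.0 CPM with YES1i in MDA-MB-231. In SUM159 LIG1 was at 42.8, 38.7, 42.5 and 39.7 CPM with DMSO and 17.4, 12.9, 14.3 and 16.3 CPM with YES1i. LIG1 did not overlap between treatments in either line (log2 fold changes -1.23 ± 0.08 and -1.43 ± 0.08, edgeR adjusted p = 8.4e-14 and 2.5e-14).

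The 3 subunits of RPA, which coats single-stranded DNA, had smaller falls than the median of the 45: RPA1 changed by -0.72 and -0.82, RPA2 by -0.72 and -0.68 and RPA3 by -0.62 and -1.06 in MDA-MB-231 and SUM159 (log2 fold change). RPA1, the largest subunit, went from 242 ± 2.81 to 147 ± 7.58 CPM and from 137 ± 12.4 to 77.8 ± 8.80 CPM (n = 4).

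Among the fork protection genes, CLSPN, the adaptor for activation of the checkpoint kinase CHEK1 at stalled forks, fell most. CLSPN was at 59.3, 63.2, 63.5 and 65.5 CPM with DMSO and 21.4, 18.5, 23.5 and 23.9 CPM with YES1i in MDA-MB-231. In SUM159 CLSPN was at 29.8, 24.9, 27.6 and 35.1 CPM with DMSO and 7.61, 8.91, 7.01 and 6.35 CPM with YES1i. SUM159 started lower and also ended lower, without overlap between treatments in either line; log2 fold changes were -1.52 ± 0.09 and -1.98 ± 0.11 (edgeR adjusted p = 1.1e-13 and 1.14e-14). TIPIN, the partner of TIMELESS, was at 14.9, 13.7, 15.3 and 14.0 CPM with DMSO and 6.07, 7.35, 6.90 and 7.34 CPM with YES1i in MDA-MB-231. In SUM159 TIPIN was at 11.6, 11.5, 11.2 and 10.3 CPM with DMSO and 6.78, 8.68, 6.68 and 7.48 CPM with YES1i. The YES1i libraries of the lines overlapped each other, while the DMSO libraries of MDA-MB-231 lay above those of SUM159; log2 fold changes were -1.07 ± 0.11 and -0.59 ± 0.11 (edgeR adjusted p = 1.02e-09 and 2.75e-05). TIMELESS changed by -1.10 and -1.23 and WDHD1, which links polymerase alpha to the helicase, by -1.17 and -1.10.

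The responses of the lines were then compared gene by gene with the interaction term of the same edgeR fit. Over the 45 genes, log2 fold changes in the lines had a Pearson r of 0.755 and a Spearman rho of 0.681 across genes, which share libraries within a line and are not independent replicates. The difference between the lines was called for 16 of 45 genes, against 31.1% of all tested genes, so the share of the 45 was near the background. In 12 of the 16 the fall was larger in SUM159, and in 4 it was larger in MDA-MB-231 (backgrounds of 19.1% and 12.1%). This split depended on the scaling between libraries: it was 9 to 5 with RLE scaling and with DESeq2, and 6 to 6 with upper quartile scaling. Under the last of these the all-gene median in SUM159 shifted from 0.02 to 0.14 (log2 fold change). None of the 45 differences reached 2-fold, which 6.24% of all genes did.

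FEN1 had the largest difference, 0.67 ± 0.09 on the log2 scale (MDA-MB-231 minus SUM159, edgeR adjusted p = 6.05e-07). The other genes with a larger fall in SUM159 were CLSPN (0.45), MCM7 (0.45), RPA3 (0.44), CDC6 (0.38), ORC3 (0.36), GINS1 (0.35), RFC2 (0.34), MCM5 (0.31), PCNA (0.29), POLD2 (0.23) and MCM6 (0.21). DSCC1 (-0.55 ± 0.14), CDT1 (-0.51 ± 0.09), TIPIN (-0.48 ± 0.15) and PRIM1 (-0.43 ± 0.15) had the larger fall in MDA-MB-231 (edgeR adjusted p = 0.00376, 7.08e-05, 0.0146 and 0.0273). Some of these calls rested on single libraries. That of POLD2 (edgeR adjusted p = 0.0485) was lost without any 1 of 12 of the 16 libraries (all but MDA-MB-231 YES1i replicate 1, SUM159 DMSO replicates 1 and 4 and SUM159 YES1i replicate 1), with adjusted p of 0.0532 to 0.138. MCM6 lost it without MDA-MB-231 DMSO replicate 2 or 3 or YES1i replicate 3 or 4 (0.0505 to 0.089), PRIM1 without MDA-MB-231 DMSO replicate 2 or YES1i replicate 4 or SUM159 YES1i replicate 1 or 4 (0.0503 to 0.0722), and CLSPN without SUM159 YES1i replicate 4 (0.0578).

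**Figure D3:**
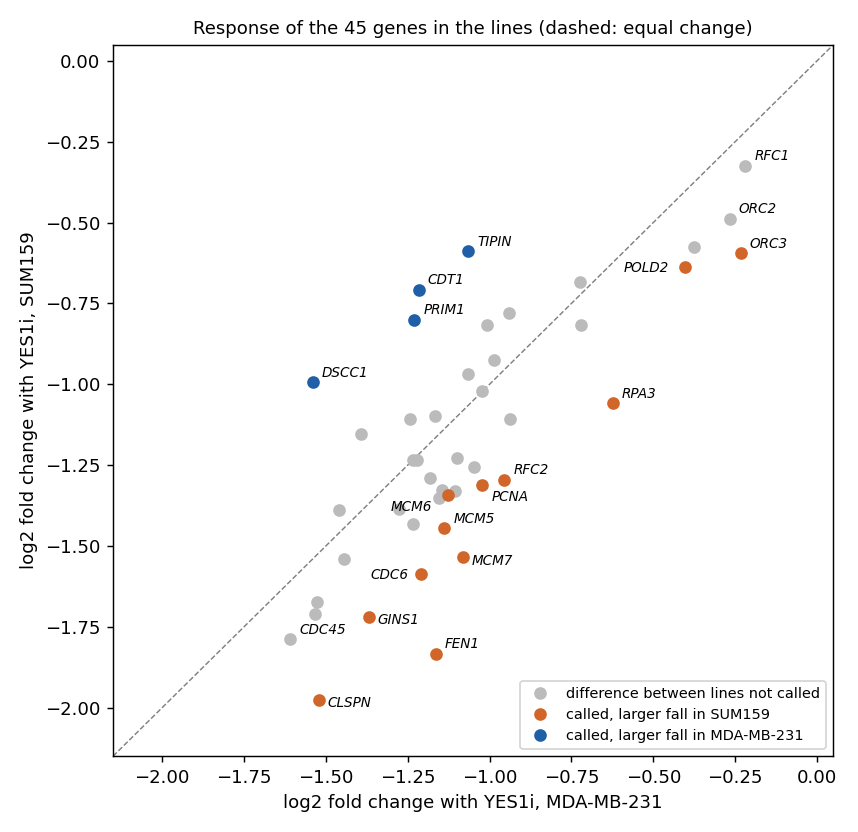
Log2 fold change with YES1i in MDA-MB-231 (horizontal axis) against that in SUM159 (vertical axis) for the 45 genes, with the dashed line at equal change; orange and blue mark the 16 genes whose difference between the lines was called in edgeR. The 12 orange genes lie below the line and the 4 blue genes, CDT1, DSCC1, PRIM1 and TIPIN, above it.

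Neighbouring genes bear on some of these values, since the strand setting of the counting is not given in the sources used here. Of the 45 genes, 27 overlap another gene of the table and 11 overlap one with counts of at least 10% of their own (MCM2, GINS2, RFC3, RFC4, RFC5, POLA1, PRIM1, FEN1, RPA1, RPA3 and CHTF18). FEN1 overlaps FADS2 on the same strand, which held 183% of the counts of FEN1 and changed by 1.31 in MDA-MB-231 and -0.59 in SUM159, a difference of 1.90 in the same direction as that of FEN1. RPA3 overlaps UMAD1 (43.1% of its counts, difference 0.99) and PRIM1 overlaps NACA (3050%, difference -0.33), also in the direction of the replication gene's difference, and the part of these neighbours was not tested. The 34 genes without such an overlap were all lower in both lines, with median log2 fold changes of -1.13 and -1.29 (backgrounds of 22.0% and 26.5% of all tested genes lower). The response differed between the lines for 13 of the 34, against 31.1% of all tested genes, so this share was near the background. In 10 of the 13 the fall was larger in SUM159 and in 3 it was larger in MDA-MB-231 (backgrounds of 19.1% and 12.1%).

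Ratios between partner genes within a library do not depend on the scaling between libraries. For 10 pairs in each line, the log2 ratio of counts was compared between YES1i and DMSO by a two-sided exact permutation test, whose smallest possible p with 4 against 4 libraries is 0.0286; after Benjamini-Hochberg adjustment over the 20 tests, this became 0.044. Each pair set a cell-cycle regulated subunit over a more constant or larger subunit of the same complex, or a factor over its inhibitor (CDT1 to GMNN). Of the 20 comparisons 13 passed, 12 with a lower and 1 with a higher ratio. The direction of these ratios depends on which pairs were chosen and which gene was put on top, so this count is a description. In MDA-MB-231 the count of ORC1 was 0.682 of that of ORC2 under DMSO and 0.297 of it under YES1i, and in SUM159 the values were 0.353 and 0.189. ORC6 to ORC3 went from 1.04 to 0.516 and from 1.06 to 0.681, and POLD1 to POLD2 from 0.466 to 0.294 and from 0.478 to 0.379. Each of these 6 had no overlap between treatments (exact permutation adjusted p = 0.044), so the subunits of ORC and of polymerase delta did not fall in proportion.

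The other ratios differed between lines in which tests passed, and the difference between the lines was not tested. RFC4 to RFC1 went from 0.573 to 0.332 in MDA-MB-231 (exact permutation adjusted p = 0.044) and from 0.436 to 0.314 in SUM159 (0.0816). CDT1 to GMNN, the gene of geminin, went from 0.678 to 0.548 in MDA-MB-231 and from 1.48 to 2.00 in SUM159, in opposite directions and both without overlap (exact permutation adjusted p = 0.044). MCM10 to MCM2 and PRIM1 to PRIM2 passed in MDA-MB-231, with log2 ratios changed by -0.30 in each, and POLE2 to POLE and RPA3 to RPA1 passed in SUM159, with changes of -0.31 and -0.25. POLA2 to POLA1 passed in neither line, at -0.14 and -0.04. With 1 library left out, an exact permutation test of the absolute difference gave 12 or 13 passing comparisons for 14 of the 16 libraries. The calls of CDT1 to GMNN in MDA-MB-231 were lost without any 1 of the DMSO libraries, of MCM10 to MCM2 in MDA-MB-231 without YES1i replicate 3, of POLE2 to POLE in SUM159 without DMSO replicate 1 or 3 or YES1i replicate 1, and of RPA3 to RPA1 in SUM159 without DMSO replicate 4 or YES1i replicate 1 or 2. Without MDA-MB-231 DMSO replicate 2 or YES1i replicate 4 none of the 20 passed, the lowest adjusted p being 0.0519 in each case, because fewer than 12 comparisons reached the smallest possible p.

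**Figure D4:**
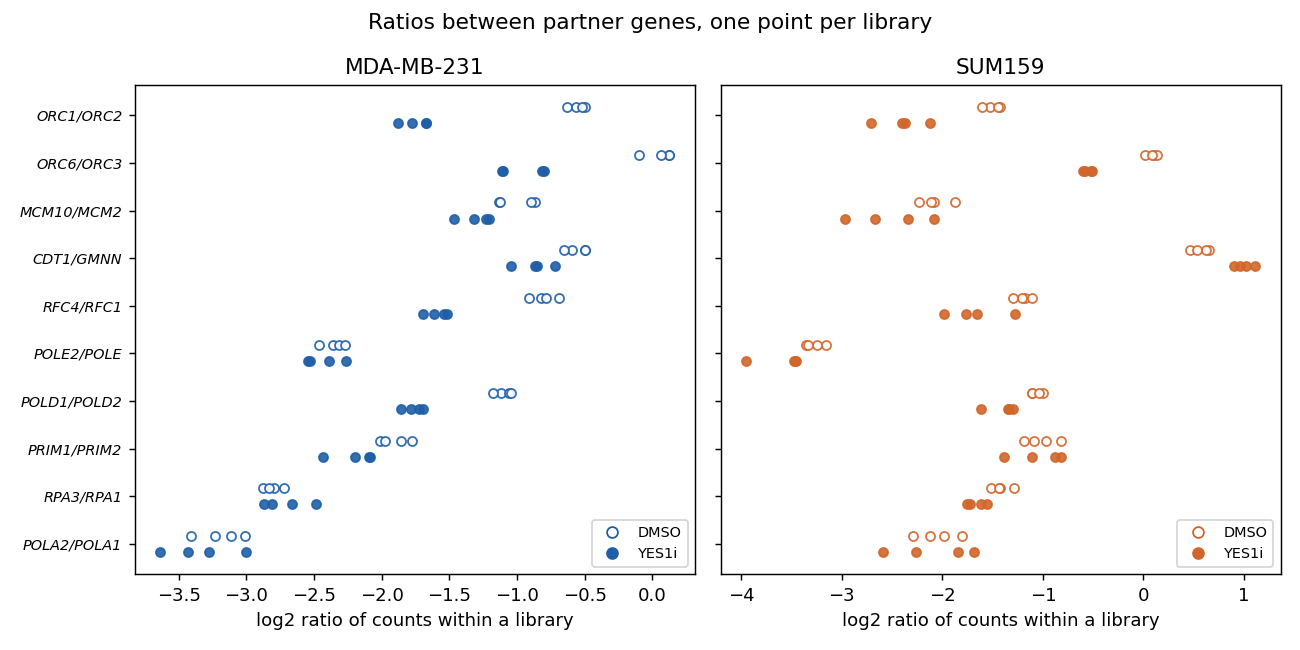
Log2 ratio of the counts of partner genes within each library (horizontal axes), one point per library, open for DMSO and filled for YES1i, in MDA-MB-231 (left) and SUM159 (right). ORC1/ORC2, ORC6/ORC3 and POLD1/POLD2 lie lower with YES1i in both panels, and CDT1/GMNN moves left in MDA-MB-231 and right in SUM159.

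Levels between genes were compared per length, as TMM-scaled CPM per kilobase of the deposited gene length. In MDA-MB-231 the 45 genes had a median of 11.6 CPM per kilobase with DMSO and 5.40 with YES1i; SUM159 had 10.95 and 5.13. With DMSO in MDA-MB-231 the order was led by PCNA at 119.9, MCM3 at 111, MCM7 at 91.0, FEN1 at 65.7 and POLD2 at 57.1 CPM per kilobase, and ended with GINS3 at 2.45 and POLA2 at 1.40. In SUM159 with DMSO it was led by PCNA at 90.5, MCM7 at 66.7, POLD2 at 65.1 and MCM3 at 62.4 CPM per kilobase. With YES1i POLD2 came first in SUM159, at 41.8 against 36.5 for PCNA. MCM2-7 is built from 1 copy of each subunit. With DMSO in MDA-MB-231, the per-length levels of its genes ran from 18.7 (MCM5) and 21.6 (MCM2) through 33.3 (MCM4) and 34.7 (MCM6) to 91.0 and 111 for MCM7 and MCM3. These values depend on the deposited lengths, which ran from 3650 bases for MCM3 to 7338 for MCM5. Whether those lengths match the transcripts present was not tested. Without division by length, the levels ran from 106 CPM (MCM2) to 406 CPM (MCM3).

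With DMSO, 40 of 45 genes differed between the lines in edgeR, against 76.6% of all tested genes: 21 were higher in MDA-MB-231 (background 37.8%) and 19 in SUM159 (38.7%). The groups did not overlap for 22 genes higher in MDA-MB-231 (36.0% of all genes) and 16 higher in SUM159 (36.4%). The largest differences were those of CLSPN (log2 1.10 ± 0.09), LIG1 (0.86 ± 0.08) and MCM3 (0.83 ± 0.05), higher in MDA-MB-231. Of the genes higher in SUM159, ORC2 (-0.66), CDT1 (-0.61), MCM2 (-0.58), and POLA2 and RPA3 (-0.57 each) differed most. GINS2, GINS3, RFC4, POLD3 and CHTF18 did not pass. The calls of GINS1 (-0.16), POLD1 (-0.23), POLD2 (-0.19) and POLE (-0.16) were lost without single libraries: 8 of the 16 for GINS1, 5 for POLD1, 3 for POLD2 and SUM159 DMSO replicate 3 for POLE, with edgeR adjusted p up to 0.187; the count of called genes then ran from 36 to 40. Across the 45 genes the log2 of the DMSO level and the log2 fold change had a Pearson r of 0.092 in MDA-MB-231 and -0.041 in SUM159, as a description.

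**Figure D5:**
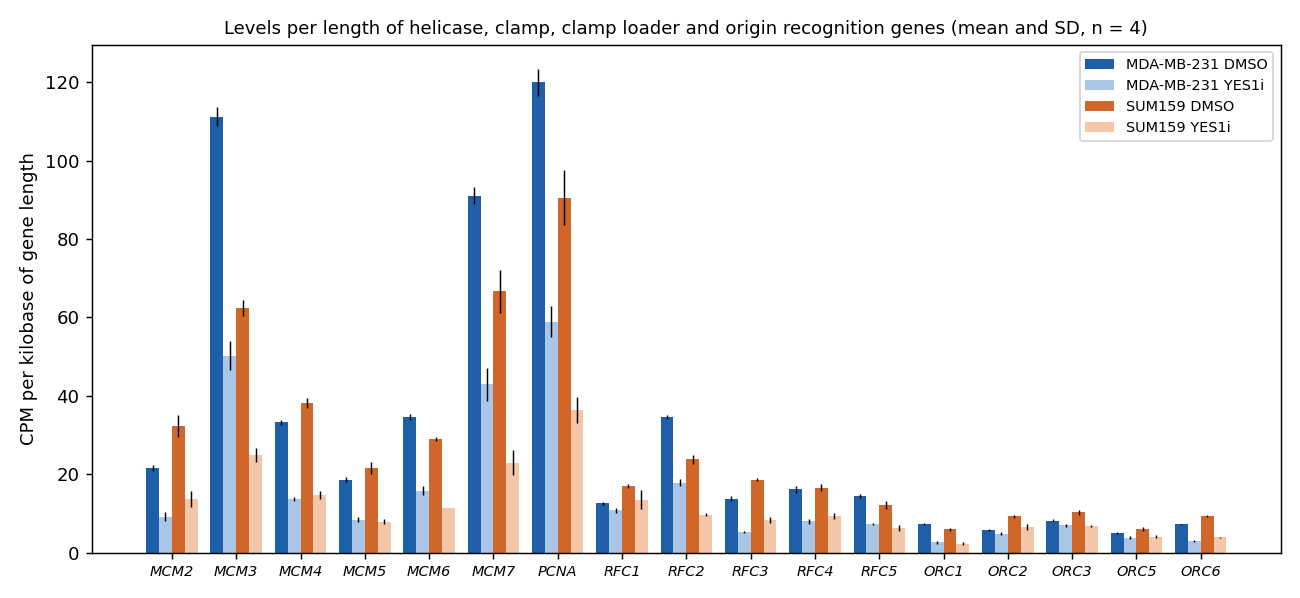
TMM-scaled CPM per kilobase of gene length (vertical axis, from 0) of the MCM2-7, clamp, clamp loader and origin recognition genes in the 4 groups, bars for the mean and lines for the SD of 4 libraries. PCNA, MCM3 and MCM7 stand above the other genes, and the YES1i bars of RFC1, ORC2, ORC3 and ORC5 stay closest to their DMSO bars.

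Other genes of replication, from a list of 43 that holds none of the 45, moved the same way in most cases. In MDA-MB-231 35 of 43 fell, 1 rose and 7 did not pass in edgeR, where 22.0% of all genes fell and 26.8% rose. The median of their log2 fold changes was -0.91. The counts in SUM159 were also 35, 1 and 7 (26.5% of all genes fell and 25.1% rose), with a median of -0.81. CHAF1B and CHAF1A, subunits of a chromatin assembly factor, changed by -1.43 and -1.10 (log2) in MDA-MB-231 and by -1.22 and -1.34 in SUM159. The histone chaperone ASF1B changed by -1.41 in MDA-MB-231 and by -1.71 in SUM159. DNA2, a nuclease of lagging-strand processing, fell from 32.7 to 10.9 CPM and from 22.6 to 8.37 CPM (log2 -1.58 and -1.43). The PCNA-associated factor PCLAF fell by -1.56 and -0.94 in MDA-MB-231 and SUM159 (edgeR adjusted p = 0.00251 and 0.0349), and ATAD5, which unloads PCNA, by -1.43 and -0.93. RECQL4 fell by -1.03 and -1.46, and LRR1, which takes part in removing the helicase at the end of replication, by -1.07 and -1.37. The call of PCLAF in SUM159, where the groups overlapped, was lost on leaving out any 1 of 5 libraries (DMSO replicates 2, 3 and 4, YES1i replicates 2 and 3; edgeR adjusted p = 0.0573 to 0.112). RNASEH2A had the most negative value of this list in MDA-MB-231 (-1.82), but at 1.63 and 0.458 CPM, and it overlaps HOOK2, which held 2920% of its counts. GMNN changed by -0.91 and -1.14.

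POLD4, the smallest subunit of polymerase delta, was the gene of this list that rose in MDA-MB-231, from 7.92 to 16.3 CPM (log2 1.04, edgeR adjusted p = 4.88e-08), and was at 7.44 and 8.40 CPM in SUM159 (0.19, adjusted p = 0.227); the difference between the lines was 0.85 (adjusted p = 0.000583). CIZ1, a nuclear protein that takes part in starting replication, rose in SUM159 from 113 to 173.5 CPM (log2 0.62, edgeR adjusted p = 5.19e-12) and was at 158 and 150.2 CPM in MDA-MB-231 (-0.07, adjusted p = 0.191). ORC4, named after its values were seen because it completes the core of the complex, was at 37.0 and 41.6 CPM in MDA-MB-231 (0.17, edgeR adjusted p = 0.0591) and at 33.6 and 29.6 CPM in SUM159 (-0.19, adjusted p = 0.0388).

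Markers of dividing cells moved with the replication genes: 7 of 7 (MKI67, CCNB1, CCNA2, CDK1, BUB1, AURKA and PLK1) fell in both lines in edgeR. Of all tested genes, 22.0% fell in MDA-MB-231 and 26.5% in SUM159. The median log2 fold changes of the 7 were -1.47 and -1.26. The means of MKI67 were 886 CPM under DMSO and 287 under YES1i for MDA-MB-231, and 597 and 245 CPM for SUM159; those of CCNB1 were 299 and 124 CPM, and 262 and 103 CPM. By the edgeR interaction term, 4 of the 7 (MKI67, CCNA2, BUB1 and PLK1) had the larger fall in MDA-MB-231 and 0 the larger fall in SUM159. Of the 45 replication genes, 4 and 12 did (backgrounds of 12.1% and 19.1% of all tested genes). This split of the 45 was 5 and 9 with RLE scaling and with DESeq2, and 6 and 6 with upper quartile scaling. The split of the markers was not examined under other scalings. The part of a lower share of dividing cells in the fall of the 45 genes was not tested.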

How the data were processed

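Gene counts of 16 libraries were taken from 1 table deposited by the authors. Reads were aligned with HISAT2 2.0.5 and counted with featureCounts 1.5.0-p3 on hg38, per the submitters' processing notes; neither the annotation release nor the strand setting is given in the sources used here. The extract protocol in the labels names both a directional and a non-directional library type. Columns were matched to samples by their names; 0 sample columns stayed unused.

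Counts were analysed with edgeR 4.0.16 in R 4.3.3: TMM scaling, filterByExpr, glmQLFit with robust estimation over all 16 libraries and 4 groups, and glmQLFTest, with Benjamini-Hochberg adjustment over 17647 genes. Calls used an adjusted p under 0.05. CPM are TMM-scaled; levels per length divide them by the deposited gene length, a column of other values per the file headers. Log2 partner ratios used counts plus 0.5. The scripts were tested on simulated data.

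Values in every library are given for the genes with the 4 largest or 4 smallest changes in a line, the 4 largest differences between lines and the 3 largest between lines with DMSO; of the other replication genes, means or log2 fold changes are given for the 5 largest changes per line and all that rose. Members and lists were chosen with earlier results of these data known. Same-numbered libraries of the groups had correlations of -0.107 to 0.012 in their deviations from group means, so the numbers do not pair the libraries. Libraries of a group differed by more than sampling noise (chi-square per degree of freedom 2.37 to 24.8). As alternatives, scaling was changed to upper quartile or RLE, the test to limma-voom (limma 3.58.1) or DESeq2 1.42.0, and the filter to a weaker or another one; others were a replicate block, each line alone, mitochondrial genes left out, and leaving out each library. A test of the ratios without each library was added after seeing the data.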

Additional observations from a re-analysis of the deposited data

Results flagged for a closer look

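In groups of 4 libraries, 1 library stood apart from the other 3 (Dixon's gap, above 0.829 of the range) in 10 of 220 groups examined (4.55%), and chance gives about 1 in 20. MCM10 was at 20.6 CPM in MDA-MB-231 YES1i replicate 3, against 17.3 to 17.7 CPM in the others. ORC2 was at 32.1 CPM in MDA-MB-231 YES1i replicate 2 (others 27.1 to 27.7), and ORC6 at 30.1 CPM in MDA-MB-231 DMSO replicate 4 (31.7 to 31.9). CDT1 was at 72.4 CPM in SUM159 DMSO replicate 1 (66.4 to 67.4), and POLE at 155 CPM in SUM159 DMSO replicate 3 (141 to 143). Among the SUM159 YES1i libraries, RFC2 was at 22.7 CPM (20.9 to 21.1) and POLD3 at 23.5 CPM (21.0 to 21.4) in replicate 3, and FEN1 at 23.8 CPM (28.7 to 29.5) in replicate 2. In the same group the log2 ratio of POLE2 to POLE was -3.95 in replicate 1 (-3.47 to -3.45), and that of POLD1 to POLD2 was -1.62 in replicate 2 (-1.34 to -1.30).

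The YES1i response differed between the lines (interaction term, edgeR, log2, MDA-MB-231 minus SUM159) for the 16 replication genes described above. The differences were 0.67 for FEN1, 0.45 for CLSPN, 0.45 for MCM7, 0.44 for RPA3, 0.38 for CDC6, 0.36 for ORC3, 0.35 for GINS1, 0.34 for RFC2, 0.31 for MCM5, 0.29 for PCNA, 0.23 for POLD2 and 0.21 for MCM6, and -0.55 for DSCC1, -0.51 for CDT1, -0.48 for TIPIN and -0.43 for PRIM1. Among other replication genes and markers of dividing cells whose values are given, it differed for POLD4 (0.85), RECQL4 (0.43), ORC4 (0.36), ASF1B (0.30), CHAF1A (0.23), CCNA2 (-0.23), BUB1 (-0.25), MKI67 (-0.34), PLK1 (-0.41), ATAD5 (-0.50) and CIZ1 (-0.69), with edgeR adjusted p from 1.85e-09 to 0.0483.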

How the results depend on the processing

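No called value changed direction under any alternative; the ratios POLA2 to POLA1 (-0.18 to 0.12) and PRIM1 to PRIM2 (-0.11 to 0.08) in SUM159, which had not passed, did on leaving out 1 library. The 45 genes called lower in MDA-MB-231 numbered 44 or 45 under every alternative, leave-one-out included; in SUM159 they numbered 44 or 45, and 45 on leaving out any 1 library. The gene lost was RFC1. Genes that differed in response numbered 16, and 12 to 16 under other settings (13 to 16 on leaving out 1 library); 13 of the 16 were still called with RLE scaling and 10 with upper quartile scaling, where MCM5 (adjusted p = 0.0742), MCM6 (0.263), GINS1 (0.0588), PCNA (0.129), POLD2 (0.301) and CLSPN (0.0737) were not; the cause was not tested. Upper quartile scaling moved the median log2 fold change in SUM159 from -1.23 to -1.11. Genes that differed between the lines with DMSO numbered 40 or 41, and 36 to 40 on leaving out 1 library.

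With the replicate number as a block, 45 genes were called lower in each line, 15 differed in response (POLD2 lost, adjusted p = 0.0664) and 40 differed with DMSO. Of the other replication genes, 35 to 38 were lower in MDA-MB-231 (34 to 36 on leaving out 1 library) and 29 to 36 in SUM159 (31 to 34); PCLAF lost its call in SUM159 without DMSO replicate 2, 3 or 4 or YES1i replicate 2 or 3 (0.0573 to 0.112). An exact test of the absolute difference of ratios without 1 library was chosen after seeing the data: 13 comparisons passed with all libraries, 12 or 13 without 1, and 0 without MDA-MB-231 DMSO replicate 2 or YES1i replicate 4, where fewer than 12 of the 20 reached the smallest p and the lowest adjusted p was 0.0519. With 4 paired differences the ratio test could not pass. Median levels per length moved by less than the spread between libraries with RLE scaling. Depth limits RNASEH2A, at 1.63 and 0.458 CPM in MDA-MB-231.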
